A study of Mus musculus with 6 samples.

Results

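The genes described here are the integrin chains and the cytoplasmic proteins that tie integrins to actin. They were taken from a fixed list of 18 alpha chains, 8 beta chains and 12 adaptors, matched by gene symbol and not by any measured value. All 38 were found among the 49671 genes of the count tables, and 37 had enough reads to be tested. Only Itgad, with 8 reads over 6 libraries, did not.

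Integrins are receptors made of 1 alpha and 1 beta chain that bind matrix or other cells outside and attach to actin inside. The alpha chain largely sets the ligand, so that families are known by whether they bind collagen, laminin, proteins with the arginine-glycine-aspartate (RGD) motif, or partners on blood cells. Talin and kindlin switch the receptor on, and vinculin, paxillin, focal adhesion kinase and the complex of integrin-linked kinase, PINCH and parvin assemble on its tail. In fibroblasts such adhesions sense and pull on the matrix, while the leukocyte family is restricted mainly to blood cells.

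RNA was sequenced from sorted cells of mouse pancreatic tumours. All hosts were C57BL/6J mice with the Rosa-mTmG reporter and Fabp4-Cre, which marks cells red (Tomato) until Cre turns them green (GFP). FC1199 pancreatic cancer cells were placed in the pancreas when the hosts were 8 weeks old, and untreated tumours were taken 4 weeks later, at 12 weeks of age. Podoplanin-positive cells were then split by colour into a GFP fraction, labelled as stellate-cell-derived cancer-associated fibroblasts, and a Tomato fraction, labelled as those of other origin, with 3 libraries of each. Whether the libraries of a fraction stem from different animals is not in the labels, and the p-values may then reflect spread among libraries alone. The Fabp4 promoter is also known to be active in fat cells and in some endothelial cells and macrophages, and Podoplanin is also carried by lymphatic endothelium and mesothelium.

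The libraries held 33378377 to 42154933 counts. Values below are CPM (counts scaled to a common library size), adjusted by the trimmed mean of M values (TMM), and per kilobase of exon wherever genes are set beside each other. The gate gene Pdpn differed by -0.10 on the log2 scale (adjusted p = 0.481) and the Cre driver gene Fabp4 by -0.09 (adjusted p = 0.551). The fibroblast marker list, led by Col1a1 and Col1a2, summed to 64032 to 72247 CPM in GFP and 29993 to 44175 CPM in Tomato. Col1a1 and Col1a2 made up most of these sums, and 4 of the list's 8 genes were higher in GFP. Dcn (7750 CPM in GFP against 8306 in Tomato, adjusted p = 0.695), Lum (adjusted p = 0.197), Fap (adjusted p = 0.249) and Pdpn were not called. Markers of other cells were also present: the macrophage and mesothelial lists were higher in Tomato, and the lymphatic and general endothelial lists were higher in GFP. Their values are given beside the integrins that differed in the same direction.

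The first comparison asked which integrin and adaptor genes differed between the fractions. Of the 37 tested genes 11 were higher in GFP and 12 were lower, at an adjusted p under 0.05. Over all 15608 genes tested, 28.9% passed, 13.1% higher and 15.7% lower in GFP. The share among the listed genes was 62.2%, and 80.0% among the 25 tested integrin chains. The 3 GFP libraries lay wholly above the 3 Tomato libraries for 14 of the 37 and wholly below for 14, against 23.4% and 25.2% of all genes (48.6% together). The median log2 difference was 0.19 for the listed genes and 0.004 for all genes. The number higher fell to 7 without GFP replicate 1 or without Tomato replicate 2, and to 7 when libraries were scaled by size alone, a scaling that moved the median of all genes to -0.16. Of all genes called, 45.5% were higher in GFP, against 22.7% with library-size scaling and 62.7% after a correction for gene length and GC content.

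**Figure D1:**
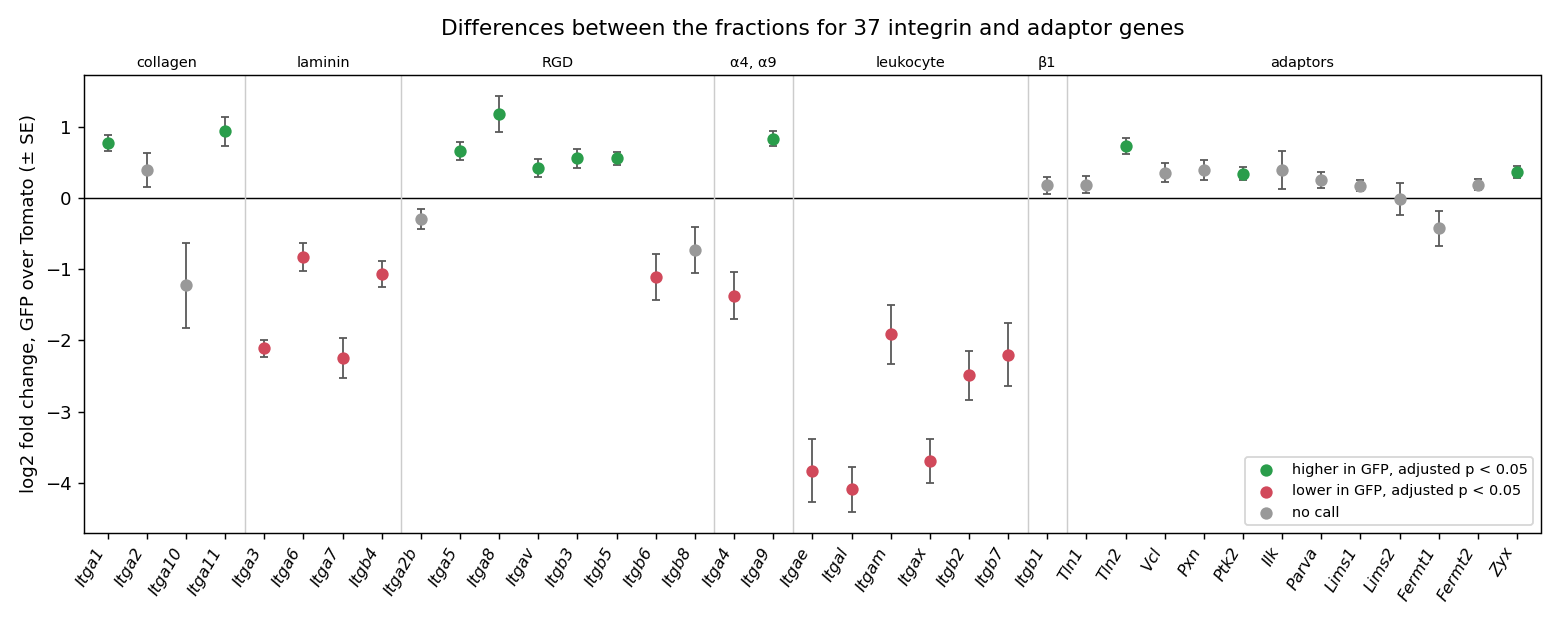
Log2 fold change of GFP over Tomato (y axis; points, bars ± SE from 3 against 3 libraries) for the 37 tested genes, grouped by class on the x axis, with green and red for genes past the threshold. The 4 laminin-type and 6 tested leukocyte genes all lie below 0, while the collagen-type, RGD-type and adaptor genes that passed lie above 0, except Itgb6.

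Collagen receptors were higher in GFP for the 2 chains with the most RNA per kilobase in this class. Itga11, which pairs with the beta 1 chain to bind fibrillar collagen and is known from activated fibroblasts, rose 1.92-fold. Itga1, a receptor chain for basement membrane collagen, rose 1.71-fold. Itga2 and Itga10 did not pass the test.

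Itga11 (chromosome 9, 62677826 to 62783982) was at 61.2, 63.5 and 64.0 CPM in GFP replicates 1 to 3 and at 41.4, 34.8 and 21.9 CPM in Tomato replicates 1 to 3. Every GFP library was above every Tomato library, and the Tomato libraries spread the more widely, with an SD of 9.95 CPM against 1.5. The difference was 0.94 ± 0.20 (log2 ± SE, adjusted p = 0.0136). Itga1 (chromosome 13, 114953096 to 115101964) was at 33.0, 30.6 and 37.2 CPM in GFP and at 21.6, 19.6 and 17.6 CPM in Tomato, without overlap. Its difference was 0.78 ± 0.12 (adjusted p = 0.00234). Per kilobase, Itga11 stood at 12.3 ± 0.293 in GFP and Itga1 at 1.81 (mean ± SD, n = 3).

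The neighbour of Itga1, Itga2 (chromosome 13, 114833081 to 114932100), lies 20995 bases away with no protein-coding gene between them. It encodes the alpha chain of the platelet and epithelial collagen receptor. Its libraries overlapped: 8.21, 4.98 and 5.61 CPM in GFP against 5.95, 4.68 and 3.61 CPM in Tomato (0.40 ± 0.24, adjusted p = 0.241). Itga10, the cartilage collagen receptor chain, was scarce at 0.862, 0.119 and 0.761 CPM in GFP and 0.840, 1.21 and 2.09 CPM in Tomato, again with overlap (-1.23 ± 0.59, adjusted p = 0.153). A same-strand gene model, Gm42957, covers 33.5% of its exonic bases, so its counts are uncertain. Summed over the class, CPM ran from 99.2 to 108 in GFP and from 45.2 to 69.8 in Tomato. In bulk RNA of this kind, fewer cells that carry a gene and less RNA per cell cannot be told apart.

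Laminin receptors were lower in GFP for all 4 chains. Itga3 and Itga7, alpha chains that pair with beta 1 in epithelium and in muscle, fell 4.32-fold and 4.75-fold. Itgb4 and Itga6, which together form the hemidesmosome receptor of epithelial cells, fell 2.10-fold and 1.77-fold.

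Itga3 (chromosome 11, 95044474 to 95076801) was at 5.20, 4.66 and 4.28 CPM in GFP and at 20.6, 21.4 and 19.1 CPM in Tomato. The libraries of each fraction lay close together, and the difference of -2.11 ± 0.12 (adjusted p = 3.44e-05) carried the smallest p of all 37 genes. Itga7 (chromosome 10, 128933818 to 128958282) was at 6.60, 5.76 and 8.77 CPM in GFP and at 22.5, 32.5 and 45.5 CPM in Tomato. Its Tomato libraries were less uniform, though all were above all of GFP (-2.25 ± 0.28, adjusted p = 0.00154).

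Itgb4 (chromosome 11, 115974709 to 116008412) was at 5.28, 3.40 and 3.92 CPM in GFP and at 8.61, 9.50 and 8.36 CPM in Tomato (-1.07 ± 0.18, adjusted p = 0.00417). Itga6 (chromosome 2, 71745616 to 71858416) was at 16.0, 11.6 and 14.7 CPM in GFP and at 19.3, 23.5 and 32.3 CPM in Tomato. Neither gene's groups overlapped, but the smaller difference of Itga6, -0.82 ± 0.20 (adjusted p = 0.019), did not pass without GFP replicate 2 (adjusted p = 0.066) or GFP replicate 3 (adjusted p = 0.0512).

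The laminin-type class summed to 33.1, 25.4 and 31.7 CPM in GFP and to 71.0, 86.8 and 105 CPM in Tomato. Mesothelial markers were higher in the same libraries: all 7 genes of that list, led by Msln and Upk3b, were lower in GFP, with sums of 27.8 to 80.4 CPM against 1060 to 1345 CPM, and none was at 0 in a whole fraction. Of 6 tested epithelial and cancer-cell markers, led by Krt8 and Krt18, 4 were lower in GFP, with sums of 44.7 to 57.1 against 377 to 429 CPM. The keratins Krt8, Krt18 and Krt7 made up most of these sums, at 171, 133 and 82.1 CPM in Tomato. Epcam was also lower, at 4.94 against 12.3 CPM. Cldn4 and Cldn7 were not called (adjusted p = 0.162 and 0.0567), and Esrp1 and Grhl2 had too few reads for a test. Which cells carried the keratin RNA was not tested. In Tomato the laminin-type sum and the epithelial sum were both highest in replicate 3 and lowest in replicate 1, whereas the mesothelial sum was lowest in replicate 3. Among the chains, Itga6 and Itga7 had the order of the laminin-type sum. Itga3 and Itgb4 were instead highest in replicate 2 and lowest in replicate 3 of Tomato, as the mesothelial sum was. In GFP the mesothelial sum was 27.8, 56.0 and 80.4 CPM in replicates 1 to 3. There Itga3 fell from replicate 1 to 3, and Itgb4 was highest in replicate 1. The macrophage sum in Tomato (1120, 1870 and 2808 CPM) also had the order of the laminin-type sum. The part of mesothelial and epithelial cells in the laminin-type difference was not tested.

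RGD receptors were mostly higher in GFP, with 5 of 8 chains up. These were Itga5, the fibronectin receptor chain, Itgav with its partners Itgb3 and Itgb5, which bind vitronectin, and Itga8, which binds nephronectin. Itgb6, the epithelial beta chain that activates latent TGF-beta, was lower. Itga2b, the platelet fibrinogen receptor chain, and Itgb8, another activator of latent TGF-beta, did not pass.

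Itga5 (chromosome 15, 103344286 to 103366763) was at 691, 548 and 717 CPM in GFP and at 410, 384 and 441 CPM in Tomato. That is the highest level of any alpha chain in either fraction, 132 ± 18.5 CPM per kilobase against 83.4 ± 5.76, and the libraries did not overlap. The difference was 0.66 ± 0.13 (adjusted p = 0.00705), a 1.58-fold rise. Itgb5 (chromosome 16, 33829665 to 33949338) was at 430, 426 and 470 CPM in GFP and at 300.1, 306 and 292 CPM in Tomato. The libraries of each fraction agreed closely, and the rise was 1.48-fold (0.56 ± 0.09, adjusted p = 0.00341).

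Itgav (chromosome 2, 83724397 to 83806916) was at 246, 191 and 231 CPM in GFP and at 169.8, 183 and 145 CPM in Tomato. The lowest GFP library was just above the highest Tomato library, and the 1.34-fold rise (0.42 ± 0.13, adjusted p = 0.0361) lost its call more often than the other chains of the class that were higher. It did not pass when scaled by library size alone (adjusted p = 0.131), nor without GFP replicate 1 (0.125), GFP replicate 3 (0.0991), Tomato replicate 2 (0.0611) or Tomato replicate 3 (0.0798), each an adjusted p.

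Itgb3 (chromosome 11, 104608000 to 104670476) was at 37.2, 26.9 and 34.7 CPM in GFP and at 21.3, 21.7 and 24.0 CPM in Tomato, again without overlap. The rise was 1.48-fold (0.56 ± 0.13, adjusted p = 0.0156). It did not pass with library-size scaling (0.058) or when GFP replicate 1 (0.0597), GFP replicate 3 (0.0549) or Tomato replicate 2 (0.0629) was left out, each an adjusted p. Itga8 (chromosome 2, 12106632 to 12301922) was scarce, at 2.37, 1.61 and 2.56 CPM in GFP and 1.07, 0.952 and 0.842 CPM in Tomato. Its 2.28-fold rise (1.19 ± 0.26, adjusted p = 0.0116) held in all 15 alternative settings.

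Itgb6 (chromosome 2, 60598292 to 60722643) rested on 89 reads over the 6 libraries. It was at 0.215, 0.269 and 0.254 CPM in GFP and at 0.467, 0.592 and 0.543 CPM in Tomato (-1.11 ± 0.32, adjusted p = 0.0345). At this depth the call was lost with no filter on low counts (adjusted p = 0.0916), with DESeq2 (0.133), and without any 1 library other than Tomato replicate 1 (0.0721 to 0.121).

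Itgb8 (chromosome 12, 119158022 to 119238802) was at 8.19, 7.58 and 10.03 CPM in GFP and at 9.12, 11.4 and 22.2 CPM in Tomato. Tomato replicate 3 stood above the others and the groups overlapped (-0.73 ± 0.32, adjusted p = 0.13). Itgb8 passed when the replicate numbers entered as a block (-0.64, adjusted p = 0.022), with DESeq2 (adjusted p = 0.0478) and without Tomato replicate 1 (-0.98, adjusted p = 0.0297). Itga2b was at 4.93, 5.43 and 5.07 CPM in GFP and 5.60, 6.67 and 6.65 CPM in Tomato (-0.29 ± 0.14, adjusted p = 0.155). Its groups did not overlap, yet the difference was small. Of 6 platelet markers only Pf4 (3.26 against 20.1 CPM) and Ppbp (0.294 against 1.94 CPM) had enough reads for a test, and both were lower in GFP. Pf4 made up most of the list's sum of 1.72 to 6.76 CPM in GFP and 12.8 to 33.6 CPM in Tomato. The other genes of the list were too scarce to test, 3 with higher means in GFP and Gp6 at 0 in all libraries.

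The RGD-type class summed to 1420, 1207 and 1471 CPM in GFP and to 918, 914 and 932 CPM in Tomato. The number of its chains higher in GFP dropped from 5 to 3 when GFP replicate 1, GFP replicate 3 or Tomato replicate 2 was left out, and with library-size scaling. General endothelial markers differed in the same direction: 6 of 8 were higher in GFP, with sums of 135 to 208 CPM against 65.1 to 91.2 CPM and none at 0. Tek and Kdr were not called, and Kdr was at 37.9 against 49.7 CPM. In both fractions the RGD-type sum was highest in replicate 3, where the endothelial sum was lowest. The RGD-type sums of Tomato lay close together (914 to 932 CPM), so their order says little. The part of endothelial cells in the rise was not tested.

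Itga9 and Itga4 form a pair of related alpha chains that bind tenascin, fibronectin splice forms and the cell-surface ligand Vcam1, and they differed in opposite directions. Itga9 (chromosome 9, 118606690 to 118901003) was at 118, 95.1 and 117 CPM in GFP and at 64.9, 62.5 and 57.1 CPM in Tomato, a 1.79-fold rise without overlap (0.84 ± 0.11, adjusted p = 0.00126). It is known from lymphatic valves, muscle and fibroblasts. Lymphatic endothelial markers were higher in the same libraries, all 5 of those tested, with sums of 493, 353 and 309 CPM in GFP and 77.6, 48.4 and 22.2 CPM in Tomato. Mmrn1 stood at 178 ± 47.2 against 22.3 ± 13.8 CPM, and Ccl21a was at 0 in all 6. In Tomato Itga9 and the lymphatic sum were both highest in replicate 1 and lowest in replicate 3. In GFP Itga9 was nearly level in replicates 1 and 3 (118 and 117 CPM), while the lymphatic sum was 493 and 309 CPM there. Itga9 was lowest in replicate 2 of GFP. The part of these cells in the difference was not tested.

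Itga4 (chromosome 2, 79255426 to 79333123), a chain best known from lymphocytes, was at 0.458, 0.328 and 0.423 CPM in GFP and at 0.793, 0.952 and 1.41 CPM in Tomato. The difference of -1.37 ± 0.33 (adjusted p = 0.0178) rested on few reads. It did not pass when GFP replicate 1 (adjusted p = 0.0518), GFP replicate 2 (0.0618) or GFP replicate 3 (0.0527) was left out, nor in a single strand column (-0.63, adjusted p = 0.267). The gene Cerkl covers 8.0% of its exonic bases.

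Leukocyte integrins were lower in GFP for all 6 of the 7 chains that could be tested, by 3.76-fold to 17.1-fold. The common chain Itgb2 and its partners Itgal, Itgam and Itgax make the receptors by which lymphocytes, neutrophils, macrophages and dendritic cells bind ICAM proteins and complement. Itgae with Itgb7 forms the receptor of tissue-resident T cells for E-cadherin.

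Itgb2 (chromosome 10, 77530252 to 77565708) had the most RNA of the class, at 7.24, 9.43 and 14.5 CPM in GFP and at 39.1, 53.7 and 82.0 CPM in Tomato. The difference was -2.49 ± 0.34 (adjusted p = 0.00299), and both fractions spread widely, with replicate 3 the highest in each. Itgal (chromosome 7, 127296260 to 127335138) was at 0.269, 0.418 and 0.338 CPM in GFP and at 3.94, 6.28 and 7.36 CPM in Tomato. This 17.1-fold difference (-4.09 ± 0.32, adjusted p = 0.000131) was the largest fitted fold of the 37 genes and rested on 10, 14 and 12 reads in the GFP libraries.

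Itgax (chromosome 7, 128129547 to 128150657) was at 2.02, 1.91 and 1.18 CPM in GFP and at 14.5, 22.2 and 29.7 CPM in Tomato (adjusted p = 0.0003). Its neighbour Itgam (chromosome 7, 128062640 to 128118491) was at 1.27, 1.70 and 3.13 CPM in GFP and at 4.62, 7.23 and 11.1 CPM in Tomato. Both genes were lower in every GFP library than in any Tomato library, by 12.9-fold and 3.76-fold. For Itgam (-1.91 ± 0.42, adjusted p = 0.0146) the call was lost with no filter (adjusted p = 0.0571) and without GFP replicate 2 (adjusted p = 0.0542). A same-strand gene model, Gm49368, covers 68.7% of its exonic bases, so its counts are uncertain.

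Itgae (chromosome 11, 73090583 to 73147446) was at 0.162, 0.0597 and 0.0564 CPM in GFP and at 1.75, 1.13 and 1.25 CPM in Tomato (-3.83 ± 0.44, adjusted p = 0.000742). Itgb7 (chromosome 15, 102215995 to 102231944) was at 0.431, 0.0895 and 0.282 CPM in GFP and at 1.07, 1.44 and 1.25 CPM in Tomato (-2.20 ± 0.44, adjusted p = 0.00863). Both chains of this receptor were scarce in GFP and neither group pair overlapped. Itgad, the remaining gene of the class, had 0, 0 and 5 reads in GFP and 1, 1 and 1 in Tomato, too few to compare.

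The class summed to 11.4, 13.6 and 19.6 CPM in GFP and to 65.0, 92.0 and 133 CPM in Tomato. All 14 macrophage and monocyte markers were likewise lower in GFP, with sums of 157, 244 and 247 CPM in GFP and 1120, 1870 and 2808 CPM in Tomato. Lyz2 stood at 99.1 ± 29.4 against 963 ± 423 CPM, and none of the 14 was at 0 in a whole fraction. In both fractions the leukocyte integrins and this list were lowest in replicate 1 and highest in replicate 3. Of 6 tested neutrophil markers 5 were lower in GFP, by 7.87-fold to 19.7-fold, among them S100a9 (0.701 against 8.58 CPM), and the untested Ly6g was at 0 in all 3 GFP libraries. Mmp9 was not called (18.2 against 22.3 CPM, adjusted p = 0.559) and made up most of the list's sum in GFP, which was 13.2 to 33.6 CPM against 42.8 to 56.1 CPM in Tomato. Few markers of lymphocytes and dendritic cells had enough reads, 2 of 11 and 2 of 6. The lymphocyte list summed to 2.37 to 3.13 CPM in GFP against 6.28 to 10.1 CPM in Tomato. In it Il7r was lower (0.284 against 4.72 CPM), while Cd2 was at 1.28 against 0.848 CPM (adjusted p = 0.189). The dendritic list summed to 25.7 to 26.4 against 28.8 to 29.9 CPM, nearly all of it Zbtb46 (24.9 against 24.1 CPM, adjusted p = 0.724), and its gene Ccr7 was 6.14-fold lower in GFP. What these cells contributed to the leukocyte integrin difference was not tested.

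**Figure D2:**
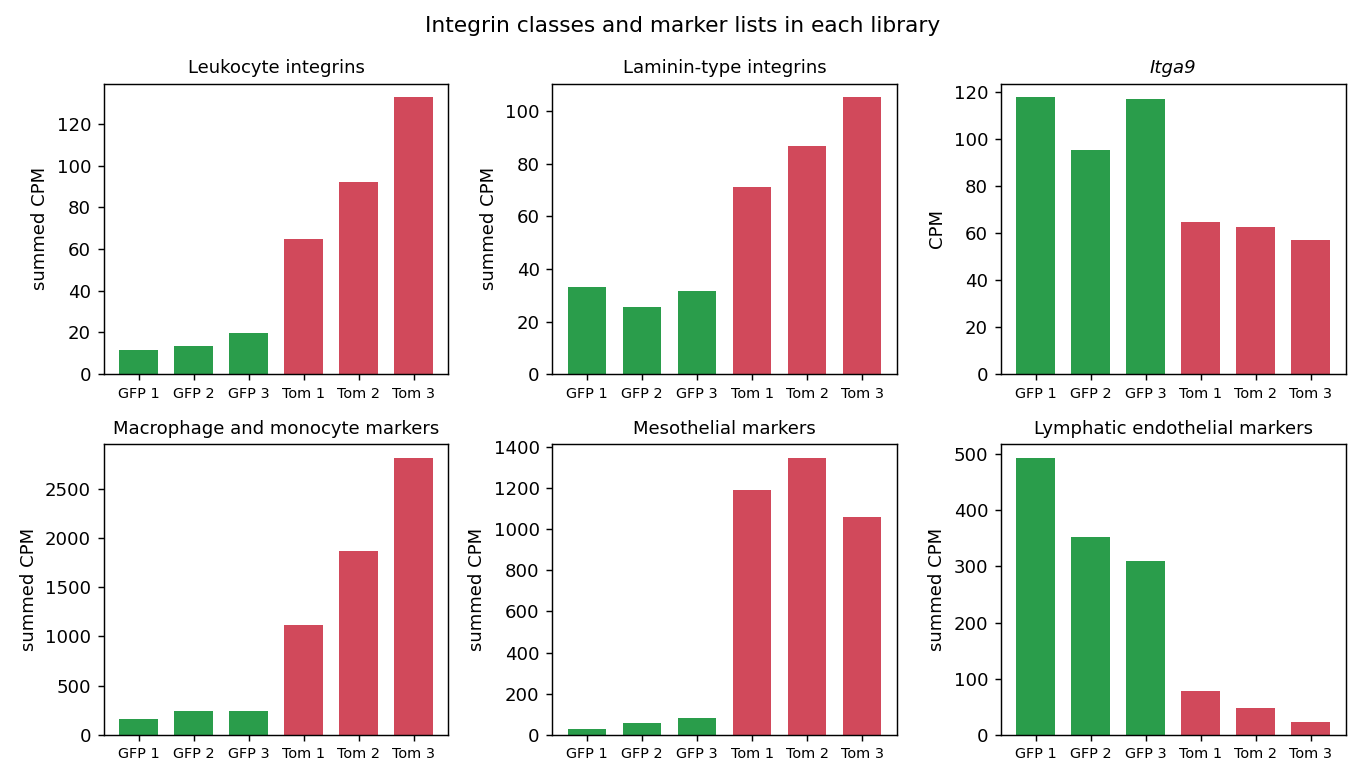
Summed CPM per library (y axis, linear from 0; bars are single libraries, GFP green and Tomato red) of the leukocyte integrins, the laminin-type integrins and Itga9 in the upper row, with the macrophage, mesothelial and lymphatic marker lists in the lower row. In Tomato the leukocyte integrins and macrophage markers are both lowest in replicate 1 (65.0 and 1120 CPM) and highest in replicate 3 (133 and 2808 CPM), whereas the mesothelial sum is lowest in replicate 3 (1060 CPM).

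Itgam, Itgax and Itgad stand side by side on chromosome 7, with gaps of 11.1 and 3.7 kb and no other protein-coding gene between them. The sequences upstream of Itgam and Itgax are printed to show whether these neighbours that moved together share simple promoter motifs, beside those of Itga11 and Itga5, which moved the other way. Each is the 250 bases before the RefSeq start (GRCm38.p6), 5′ to 3′ on the gene's strand: chr7:128062390-128062639 (plus) for Itgam, chr7:128129300-128129549 (plus) for Itgax, chr9:62677605-62677854 (plus) for Itga11 and chr15:103366792-103367041 (minus) for Itga5. Capitals mark matches, on either strand, to GAGGAA (the core bound by the myeloid factor PU.1), TGANTCA (the AP-1 site), GGGCGG (the GC box) or TATAAA (the TATA box).
Itgam: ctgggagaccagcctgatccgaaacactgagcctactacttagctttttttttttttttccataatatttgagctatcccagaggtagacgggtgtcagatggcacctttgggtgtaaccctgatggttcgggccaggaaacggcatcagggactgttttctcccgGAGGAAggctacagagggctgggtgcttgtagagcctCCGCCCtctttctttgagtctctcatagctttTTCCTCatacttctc
Itgax: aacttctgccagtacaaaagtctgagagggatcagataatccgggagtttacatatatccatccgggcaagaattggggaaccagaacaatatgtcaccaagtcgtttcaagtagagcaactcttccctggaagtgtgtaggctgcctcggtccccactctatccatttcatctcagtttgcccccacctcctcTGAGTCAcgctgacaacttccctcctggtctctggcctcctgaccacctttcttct
Itga11: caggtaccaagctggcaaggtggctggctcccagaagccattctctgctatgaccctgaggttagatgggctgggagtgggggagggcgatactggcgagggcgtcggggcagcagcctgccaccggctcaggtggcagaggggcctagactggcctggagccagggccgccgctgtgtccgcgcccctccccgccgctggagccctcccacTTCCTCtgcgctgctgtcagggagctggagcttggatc
Itga5: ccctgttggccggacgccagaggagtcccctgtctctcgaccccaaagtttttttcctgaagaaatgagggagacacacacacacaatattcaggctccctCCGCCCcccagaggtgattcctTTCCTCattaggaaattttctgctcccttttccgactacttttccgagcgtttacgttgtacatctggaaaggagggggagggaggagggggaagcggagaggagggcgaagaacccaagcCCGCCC

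The Itgam window held 2 PU.1 cores and 1 GC box, and the Itgax window held 1 AP-1 site. The Itga11 window held 1 PU.1 core, and the Itga5 window 1 PU.1 core and 2 GC boxes, so the PU.1 core was found in windows of genes that differed in both directions. None of the 4 held a TATA box. RefSeq windows were found for 25 of the 38 genes, 30 windows in all. The PU.1 core was in 10 of them (33.3%, against 23.3% of all 32851 windows) and the GC box in 13 (43.3% against 32.7%). The AP-1 site was in 2 (6.67% against 6.75%) and the TATA box in 1 (3.33% against 12.4%). A match is a description of letters in the window and does not show that a factor binds there.

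Itgb1, the shared beta chain of the collagen, laminin and many RGD receptors, was not called. It was at 1216, 1024 and 1286 CPM in GFP and at 1052, 1031 and 1016 CPM in Tomato (chromosome 8, 128685654 to 128733200). GFP replicate 2 lay within the Tomato range, and the difference was 0.19 ± 0.12 (adjusted p = 0.261). Itgb1 was the most abundant integrin chain per kilobase in both fractions, at 288 ± 33.2 in GFP and 253 ± 4.37 in Tomato.

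The make-up of the integrin pool followed from these levels and is given as a description, with each chain's CPM per kilobase as a share of all alpha or all beta chains. Itga5 made up 70.4% ± 1.26 of the alpha chains in GFP and 62.0% ± 2.23 in Tomato (SD, n = 3). Next came Itgav at 11.05% ± 0.476 and 11.5% ± 1.73, shares that did not differ beyond their spread, then Itga9 at 7.62% ± 0.118 and 5.96% ± 0.582, and Itga11 at 6.61% ± 0.943 and 4.78% ± 1.57. In GFP replicate 2 these last chains were level, at 7.68% and 7.70%. Itgax took 0.193% in GFP and 3.41% in Tomato, Itga7 0.462% and 3.06%, and Itga3 0.445% and 2.66%.

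Among beta chains, Itgb1 held 68.0% ± 1.71 in GFP and 69.7% ± 1.65 in Tomato. Itgb5 held 29.5% ± 1.79 and 23.2% ± 0.654, and Itgb2 held 0.799% ± 0.240 and 5.24% ± 1.93. The chains that bind RGD thus stood far above those for collagen and laminin per kilobase in both fractions: the RGD class summed to 285 per kilobase in GFP, the collagen class to 15.1 and the laminin class to 3.86. In Tomato these sums were 189.6, 8.36 and 11.7, so the mean of the laminin class stood above that of the collagen class there and below it in GFP. That order did not hold in Tomato replicate 1, where the sums were 9.76 for laminin and 10.2 for collagen. The sums cover unlike sets. The RGD class holds alpha and beta chains, the laminin class includes Itgb4, and the collagen class holds alpha chains alone. Itgb1 is in none of the sums. Of the RGD class, the alpha chain Itga5 stood at 132 per kilobase in GFP and 83.4 in Tomato, and Itgb5 at 124 and 84.2.

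**Figure D3:**
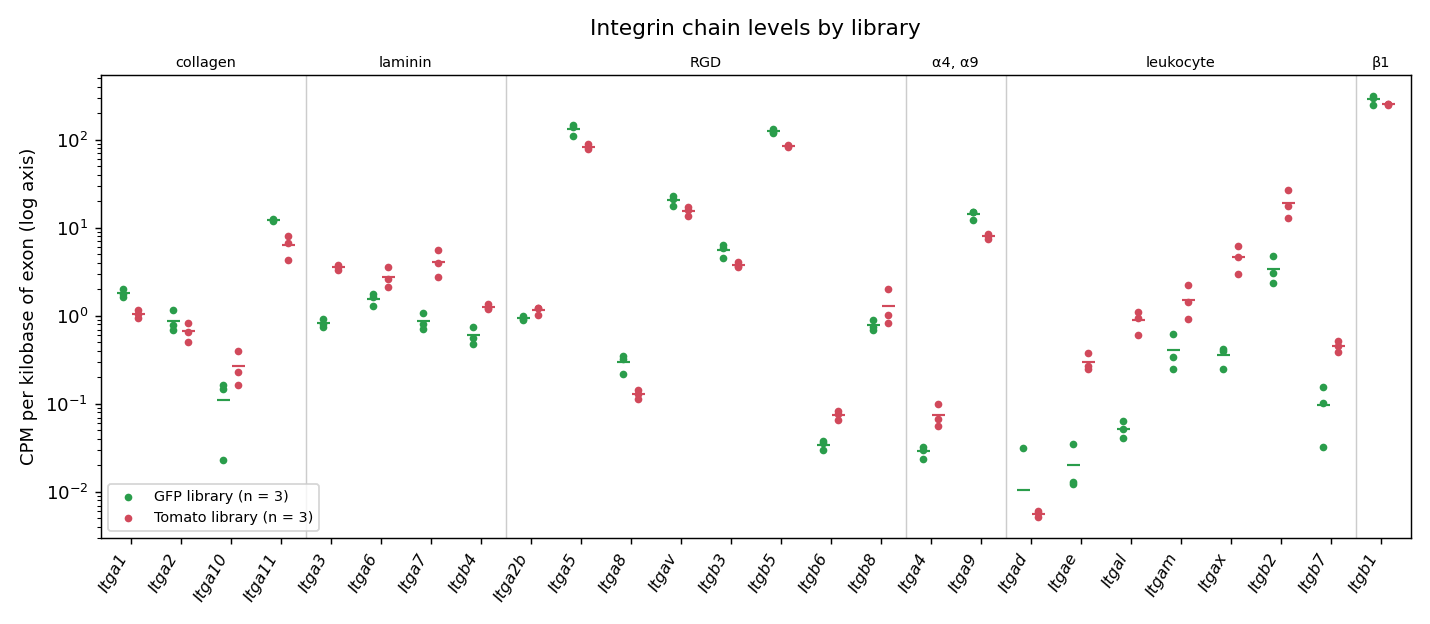
CPM per kilobase of exon (y axis, log scale) of the 26 integrin chains, each point 1 library and each dash the mean of 3, GFP green and Tomato red, grouped by class. Itgb1, Itga5 and Itgb5 lie highest in both fractions; Itgad, not tested, has no point in the 2 GFP libraries without a read.

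The adaptors showed small differences, with 3 of 12 higher in GFP and 9 not called, a share of 25.0% beside the 28.9% of all genes. Tln2, a talin encoded by its own gene, rose 1.67-fold. Zyx, zyxin of tension-bearing adhesions, and Ptk2, focal adhesion kinase, were higher by 0.37 and 0.35 on the log2 scale. The median difference of the 12 was 0.30.

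Tln2 (chromosome 9, 67217087 to 67559703) was at 40.0, 37.6 and 46.9 CPM in GFP and at 26.5, 25.1 and 22.9 CPM in Tomato (0.74 ± 0.11, adjusted p = 0.00245). Its groups did not overlap and the call held in all 15 alternatives. Tln1, the main talin of most cells (chromosome 4, 43531519 to 43562691), was at 182, 129 and 157 CPM in GFP and at 142, 131 and 136 CPM in Tomato, with overlap (0.19, adjusted p = 0.265). Per kilobase Tln1 exceeded Tln2 in both fractions.

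Zyx (chromosome 6, 42349630 to 42360213) was at 299, 285 and 277 CPM in GFP and at 233, 219 and 213 CPM in Tomato (0.37 ± 0.09, adjusted p = 0.0157). Ptk2 (chromosome 15, 73205102 to 73423280) was at 90.3, 79.9 and 90.1 CPM in GFP and at 73.1, 67.6 and 64.0 CPM in Tomato (0.35 ± 0.09, adjusted p = 0.0254). Neither overlapped between the fractions, but both calls were lost with library-size scaling (adjusted p = 0.101 and 0.161) and without GFP replicate 1 (0.0607 and 0.0843) or Tomato replicate 2 (0.0726 and 0.0917). The call of Ptk2 was also lost without GFP replicate 3 (0.0851) or Tomato replicate 3 (0.0559).

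Pxn, the paxillin scaffold (chromosome 5, 115506676 to 115555987), was at 185, 179 and 145 CPM in GFP and at 148, 132 and 106 CPM in Tomato. The highest Tomato library was above the lowest GFP library, and the difference was 0.40 ± 0.14 (adjusted p = 0.0632). Replicate 3 was the lowest library of both fractions, and once the replicate numbers entered as a block the difference passed (0.40, adjusted p = 0.00406), as it did with DESeq2 (0.0462) and without Tomato replicate 1 (0.0239). Vcl, vinculin (chromosome 14, 20929398 to 21033676), was at 160, 111 and 135 CPM in GFP and at 107, 108 and 101 CPM in Tomato, without overlap (0.36 ± 0.13, adjusted p = 0.066). It passed with the block (0.35, adjusted p = 0.0323) and without GFP replicate 2 (adjusted p = 0.0261).

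The kindlin Fermt2 was at 190, 192 and 199 CPM in GFP and at 170, 165 and 173 CPM in Tomato. The PINCH gene Lims1 was at 168, 172 and 172 CPM in GFP and at 143, 152 and 157 CPM in Tomato. Both were higher in every GFP library by a small margin that did not pass (0.19, adjusted p = 0.101, and 0.18, adjusted p = 0.131). Both passed after a correction for gene length and GC content (adjusted p = 0.0251 and 0.0335), a correction that moved the median of all genes to 0.105.

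The parvin gene Parva overlapped between the fractions, at 375, 318 and 371 CPM against 319, 302 and 271 CPM (0.26, adjusted p = 0.106). The epithelial kindlin Fermt1 was near 1 CPM, at 0.754, 0.806 and 0.733 in GFP and 0.956, 0.978 and 1.14 in Tomato (-0.42, adjusted p = 0.226). Lims2, the other PINCH gene, lay between 10.4 and 13.4 CPM in GFP and between 8.31 and 16.0 CPM in Tomato (-0.01, adjusted p = 0.982).

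**Figure D4:**
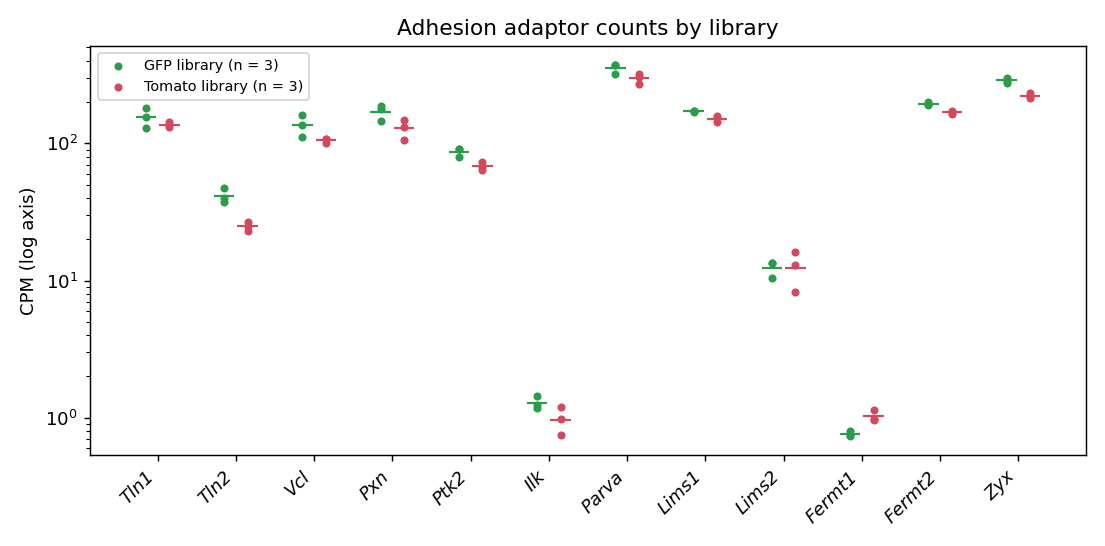
CPM (y axis, log scale) of the 12 adaptor genes in each library, points for libraries and dashes for means of 3, GFP green and Tomato red. Tln2, Ptk2 and Zyx lie higher in all 3 GFP libraries and passed the test; the low counts of Ilk are those of the column for both strands.

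Ilk, integrin-linked kinase, is a widely expressed gene, yet the column for both strands held 252 reads of it over the 6 libraries. Exons of Taf10 and Rrp8, on the other strand, cover 89.7% of its exonic bases (chromosome 7, 105736592 to 105742925). The columns for single strands held 35368 and 34929 reads, together 279 times the column for both strands. In the forward column Ilk was at 142, 159 and 169 CPM in GFP and at 156, 158 and 161 CPM in Tomato, so the fractions overlapped, and the difference there was -0.02 (adjusted p = 0.882). In the column for both strands it was at 1.18, 1.43 and 1.24 CPM against 1.19, 0.746 and 0.978 CPM (0.40, adjusted p = 0.277). The library kit is not stated to keep the strand, and forward over reverse totals were 1.002 to 1.006 in the 6 libraries. The counts thus show no strand preference. Reads of Ilk and of its antisense partners therefore cannot be told apart, and no level of Ilk is given per kilobase. Vcl has a smaller overlap, 25.5% of its exonic bases with Ap3m1, and its strand columns summed to 1.95 times the count for both.

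**Figure D5:**
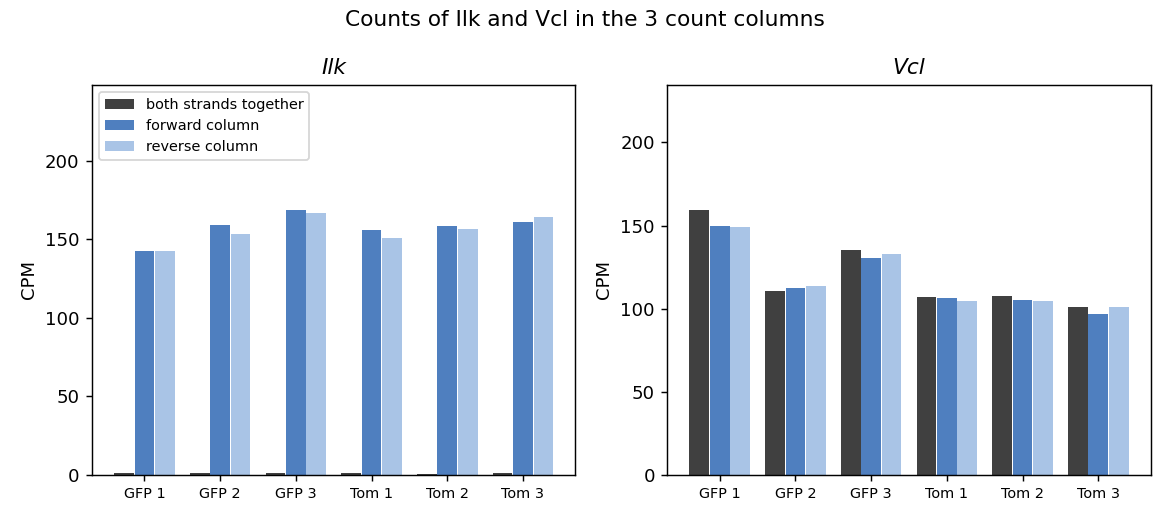
CPM of Ilk and Vcl in each library (x axis) as counted in the column for both strands and in the forward and reverse columns, scaled by the totals for both strands (y axis, linear from 0; bars are single libraries). Ilk is near 1 CPM for both strands together and above 140 CPM in each single strand column.

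Of 48 other genes of the adhesion plaque and its actin links, 8 were higher and 7 lower in GFP, a share of 31.2% near the 28.9% of all genes, with a median difference of 0.13. With the replicate block 18 were higher and 10 lower, and 13 were higher without Tomato replicate 1. Lpp, a relative of zyxin, rose by 0.69 ± 0.11 (263 ± 4.17 against 163 ± 22.3 CPM, adjusted p = 0.00328). Git1, a paxillin partner, was higher by 0.62. On the other side, Cav1, the coat protein of caveolae, fell by 1.15 (291 ± 38.8 against 646 ± 82.4 CPM, adjusted p = 0.000931). Fermt3, the kindlin of blood cells, was at 1.64 against 14.3 CPM (-3.12, adjusted p = 0.00125), and is known to activate the Itgb2 integrins. Sorbs2, a vinculin-binding protein, differed by -1.61 (adjusted p = 0.00148).

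Among 10 inhibitors and membrane partners of integrins, Cd151 was the gene that passed. This tetraspanin, which binds the laminin-receptor chains, was at 32.6 ± 3.64 CPM in GFP against 51.9 ± 4.24 CPM in Tomato (-0.67 ± 0.11, adjusted p = 0.00378), lower as Itga3, Itga6 and Itga7 were. The median of the 10 was -0.14, and 3 were lower with the block and 5 with library-size scaling.

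Matrix ligands of these receptors were largely higher in GFP, with 19 of 26 up, 2 down and a median of 0.87. The share called was 80.8%, beside the 28.9% of all genes. The laminin chains Lama1 and Lamc1 were up by 1.52 and 1.04 (Lamc1 at 466 ± 73.1 against 227 ± 45.8 CPM), and Col1a1 by 1.30. The laminin chain Lama5 and Npnt, the nephronectin ligand of Itga8, were down. The other laminin chains of the list, Lama2, Lama4, Lamb1 and Lamb2, were also up (0.93, 0.87, 0.89 and 0.71). Lama5, at 1.08 CPM in GFP against 7.33 CPM in Tomato, was the only laminin chain of the list that was down. The laminin-type receptor chains therefore differed in the opposite direction to the listed laminin ligands, except Lama5. The number of ligands higher was 12 without GFP replicate 1 or without Tomato replicate 2.

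Of 8 cell-surface ligands 7 were tested, with 2 higher and 2 lower in GFP and a median of 0.14. The share called was 57.1% of those tested, beside the 28.9% of all genes. Vcam1, the ligand of Itga4 and Itga9, was at 257 ± 7.03 CPM in GFP against 400 ± 21.7 CPM in Tomato (-0.64 ± 0.09, adjusted p = 0.00178). Cdh1, E-cadherin and the ligand of the Itgae receptor, was at 3.54 ± 0.997 against 11.9 ± 5.31 CPM (-1.74, adjusted p = 0.0096). Icam2, an endothelial ligand of Itgal, was higher in GFP, at 4.38 ± 1.02 against 1.15 ± 0.0626 CPM (1.92, adjusted p = 0.00086), so it differed in the opposite direction to its receptor chain. Thy1 was higher by 0.52, and Madcam1, the ligand of the receptor with Itgb7, was not tested.

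The sums of mural cell markers overlapped between the fractions. They ran from 474 to 789 CPM in GFP and from 501 to 782 CPM in Tomato. Acta2 made up most of them and was not called (476 against 462 CPM, adjusted p = 0.89), nor was Des (63.3 against 119 CPM, adjusted p = 0.0518). The 2 of 8 genes that were higher in GFP, named after their values were seen, were Mcam (11.7 against 7.09 CPM) and Notch3 (8.65 against 4.66 CPM). Among Schwann cell markers, Sox10 and Gfra3 were at 0 in all GFP libraries.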

How the data were processed

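RNA-seq counts of 6 libraries (3 GFP, 3 Tomato) were used. Per the labels' protocols, a TruSeq kit was used on 150 ng of RNA. The authors deposited raw counts per gene, whose columns, per the file headers, are both strands and either strand. Trim Galore 0.4.3, STAR 2.5.2b and GRCm38 are named without roles, per the submitters' processing notes. The annotation release is not given in the sources used here.

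Counts over both strands were analysed. GENCODE M21 gave names and coordinates (1-based) for 49412 of 49671 genes, and the other 259 held 0.00762% of counts. Levels per kilobase used the merged exons of each gene. GFP was compared with Tomato by the two-sided quasi-likelihood test of edgeR 4.0.16 in R 4.3.3, with TMM scaling, the filterByExpr filter, no block and Benjamini-Hochberg adjustment over 15608 genes. All adjusted p-values come from this test unless another is named. The common biological coefficient of variation was 0.158. Levels under 1 CPM rest on few reads.

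The listed genes, classes and gene lists were chosen with earlier results of these data known, so no list was tested. All 38 genes are named, with the 3 genes higher and the 3 lower of smallest adjusted p in each pathway list and the 2 most abundant in each marker list, plus markers at 0 in a fraction. A few genes that this rule gives are not reported here.

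Equally numbered libraries deviated together (correlations 0.463, 0.182 and 0.405, against -0.442 to -0.0139 for unequal numbers). All values for equal numbers were above 0.1, a link seen in the data alone, since the labels name no pairs. Deviations were taken from the mean of each fraction, so positive values for equal numbers push those for unequal numbers below 0. The contrast between them is thus partly fixed in advance. Reported results come from the fit without pairs, and the fit with the number as a block is an alternative. Counts of libraries of 1 fraction differed beyond sampling noise, and each was counted as its own sample. Separate preparations from 1 pool of cells could also differ in this way, so the check does not show separate animals. Alternatives were relative log expression and library-size scaling, no filter, 1 CPM in 3 libraries, DESeq2 1.42.0, the replicate block, a single strand column, a length and GC correction with and without the block, and leaving out each library. Protein sequences were not used here.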

Additional observations from a re-analysis of the deposited data

How the results depend on the processing

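No listed gene changed direction past the threshold under any of the 15 alternatives. The calls of Itga1, Itga3, Itga5, Itga7, Itga8, Itga9, Itga11, Itgae, Itgal, Itgax, Itgb2, Itgb4, Itgb5, Itgb7 and Tln2 held in all of them. With scaling by library size alone, 1128 genes were higher and 3851 lower in GFP over the whole table, with 7 of the listed genes, 3 RGD-type chains and 1 adaptor higher. With the replicate block 3137 genes were higher over the whole table, 5 adaptors higher and 2 RGD-type chains lower. The block added calls for Itgb8, Vcl and Pxn and changed no other call among the listed genes. The length and GC correction gave 1618 genes lower and 5 adaptors higher, and with the replicate block 4001 genes higher, 7 adaptors higher and 2 RGD-type chains lower. No filter gave 5 adaptors higher and 0 RGD-type chains lower (Itgb6, unadjusted p = 0.0184). Itgb6 was not tested with the filter at 1 CPM or in a single strand column, which left 0 RGD-type chains lower, and Itga4 was untested in the first and without a call in the second, which left 0 of its class lower by edgeR. Leaving out single libraries gave 833 to 2392 genes higher and 1380 to 2793 lower over the whole table. Among the listed genes 7 to 12 were higher, with 3 to 5 RGD-type chains and 1 to 4 adaptors. On the lower side were 0 to 2 RGD-type chains and 0 to 1 of Itga4 and Itga9. The cause of these changes was not tested, except that fewer libraries were fitted when one was left out. Read depth limits Itga4, Itga8, Itga10, Itgad, Itgae, Itgal, Itgb6, Itgb7 and Fermt1, all below 1 CPM in at least 1 fraction. Ilk was also below 1 CPM in Tomato in the column for both strands, but exons of Taf10 and Rrp8 cover 89.7% of its exonic bases.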

Other observations

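The gap between count columns seen for Ilk was looked for in the rest of the table. Of 11436 genes with at least 1000 reads in the strand columns together, 512 (4.48%) had more than 10 times as many reads there as in the column for both strands, and 1000 (8.74%) had more than 1.5 times. The median ratio was 1.0, and Ilk ranked 226 by this ratio.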
